A study of Mus musculus with 9 samples.

Results

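Acyl-CoA thioesterase genes were followed in the livers of mice with and without Mif-2. The set was a named list of 9 Acot genes, taken by symbol from the 27179 genes of the count table and sorted by the place where the enzyme works. Acot1, Acot7 and Acot12 stood for the cytosol, Acot2, Acot9 and Acot13 for mitochondria, and Acot3, Acot4 and Acot8 for peroxisomes. The rule names genes and uses no measured value, though the list was drawn up with earlier results of these data known. All 9 members passed the filter on low counts.

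Bulk RNA sequencing had been done on frozen liver sections of mice that were fed a cholesterol-rich high-fat diet (HFD) for 12 weeks, starting at 8 weeks of age. The paper describes the livers of female mice after this diet and a similar difference in males. Its text on the sequencing does not give the sex. The samples were 5 Apoe-/- libraries, labelled WT, and 4 Mif-2-/- Apoe-/- libraries, labelled DKO. Both genotypes lacked Apoe, the apolipoprotein that clears remnant lipoproteins, so neither group was a healthy liver. The Mif-2-/- Apoe-/- animals lacked Mif-2 in every tissue and not in the liver alone. The lines were crossed on a C57BL/6 background and littermates were compared. Lysates of several sections were combined into a library, so each library held all cell types of the cut surface. In such bulk samples, fewer cells of a type and less RNA per cell cannot be told apart. The labels do not say from which animal a library came, and the study gives fewer mice per group than there are Apoe-/- libraries, so some of these may share an animal. The p-values then measure only the spread between libraries and may be too small.

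Acyl-CoA thioesterases split an activated fatty acid, the acyl-CoA, into the free fatty acid and coenzyme A. In liver they set how much acyl-CoA remains for oxidation, esterification or signalling in each compartment. Acot1 to Acot6 form the type I family, α/β-hydrolases encoded side by side, and several of them are known target genes of PPARalpha, the nuclear receptor that responds to fatty acids. Acot7 to Acot13 belong to type II, whose catalytic domains have the hotdog fold.

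Many peroxisomal matrix enzymes carry a short targeting signal at their very end. The last bases of each coding region are therefore shown, from the longest RefSeq-matched transcript of GENCODE M21 (GRCm38), 5′ to 3′. Capitals mark the last sense codons and the stop codon.
Acot3 (peroxisomal), coding end: aaaaagaagacaatcccaGCAAAACTGTGA
Acot4 (peroxisomal), coding end: acccacagcagagcctccTGTAGACTGTAG
Acot8 (peroxisomal), coding end: aagcctcaggtgtcagagAGTAAGCTATAG
Acot1 (cytosolic), coding end: gagtgtttgcatgtgtctCCTAAAATATAA
Acot7 (cytosolic), coding end: cgacagggccacacagagCCTCAGCCCTAG
Acot12 (cytosolic), coding end: actcctgatggacttaaaAGTGTGTTATAA
Acot2 (mitochondrial), coding end: ttccacaaacagttgggtAGCAAGAGTTAG
Acot9 (mitochondrial), coding end: ttgaaaaaggactaccctGTGGAGCCCTAG
Acot13 (mitochondrial), coding end: ggcagacacacaaaacacCTGGGGAACTGA
The peroxisomal members Acot3, Acot4 and Acot8 ended on the sense codons CTG, CTG and CTA, preceded by AAA, AGA and AAG. None of the cytosolic or mitochondrial members ended on CTG or CTA. The cytosolic Acot12 ended on TTA, which encodes leucine as CTG and CTA do, but is preceded by GTG. A last codon for leucine was thus not particular to the peroxisomal members.

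Acot1 and Acot2 were the closest pair of members, with 95.5% identical bases over 1239 aligned coding bases. They differ at the start, where the mitochondrial enzyme carries its import sequence. The coding region was 1260 bases long in Acot1 and 1362 bases in Acot2. The first coding bases, 5′ to 3′, show where the reading frames part.
Acot1 (cytosolic), coding start: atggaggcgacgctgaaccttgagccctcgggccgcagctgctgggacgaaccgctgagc
Acot2 (mitochondrial), coding start: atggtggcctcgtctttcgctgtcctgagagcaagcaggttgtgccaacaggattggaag
Acot1 and Acot3 had 84.0% identical coding bases, Acot1 and Acot4 74.8%, and Acot3 and Acot4 74.2%. This bears on the counts, since a read that matches more than 1 gene may be given to either or dropped. Of all stretches of 100 bases in the Acot1 transcript, 21.9% also occurred in another Acot transcript and 16.5% in Acot2. The share was 17.1% for Acot2, 4.44% for Acot3, 0.36% for Acot4 and 0.97% for Acot9, whose partner is Acot10. It was 0 for Acot7, Acot8, Acot12 and Acot13. How reads that match several genes were counted is not given in the sources used here.

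On GRCm38 the type I genes lie on the plus strand of chromosome 12, in the order Acot2 (83987861 to 83993873), Acot1 (84009490 to 84018371), Acot4 (84038379 to 84048601), Acot3 (84052144 to 84060402), Acot5 (84069325 to 84076020) and Acot6 (84100654 to 84111349). Acot8 is on chromosome 2 from 164792765 to 164804882 on the minus strand, and Acot7 on chromosome 4 from 152178134 to 152271855 on the plus strand. Acot12 (91741512 to 91786148, plus strand) and Acot13 (24817948 to 24831540, minus strand) are on chromosome 13, and Acot9 is on X from 155262443 to 155297654 on the plus strand. The counts were taken on exons, and the kit does not mark strand. The RefSeq span of Gm40474 covers Acot4 and runs into Acot3, and had no row in the table. Snx21 and Zswim3 overlap Acot8, and 4833422C13Rik overlaps Acot12 by 547 bases, so reads of overlapping exons cannot be told apart.

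The libraries held 2318148 to 10764182 counts in total and 843 to 3295 counts on the 9 members. The labels were checked on Ddt, which encodes MIF-2. Its mean was 658 ± 283 CPM (SD, n = 5) with Mif-2 and 4.18 ± 1.45 CPM (SD, n = 4) without it, where CPM are counts scaled to TMM-normalized library sizes. The 10 most abundant genes took 14.7% to 23.7% of the counts of Apoe-/- libraries, and 12.5% to 26.3% of those without Mif-2. Apoe-/- replicate 5 had the lowest share of its genotype, and Mif-2-/- Apoe-/- replicate 2, the shallowest library, had the highest share of all 9. Hepatocyte markers, of which 11 of 12 were in the table and none was at 0 throughout, summed to 68300 to 210000 CPM and 67400 to 204000 CPM, so both groups had the profile of liver. The summed levels of Kupffer cell, endothelial, stellate cell, cholangiocyte and leukocyte markers also overlapped between the genotypes.

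The comparison of the genotypes asked whether the enzymes of a compartment differed together in livers without Mif-2. In the edgeR fit with no covariate over all 9 libraries, no compartment had its 3 members on the same side of 0. By DESeq2, but not by edgeR, Acot1 was lower and Acot3 was higher without Mif-2, and both lie in the same gene cluster. Acot1 did not overlap between the genotypes, while the other 8 members, Acot3 included, did. Neither tool called the other 7. All fold changes put Apoe-/- over the double-deficient livers, so a positive log2 value is higher in Apoe-/-.

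By edgeR's quasi-likelihood test, 0 of 9 members had an adjusted p-value under 0.05. Over all 16860 genes tested 10 genes passed with the higher level in Apoe-/- (0.0593%), while 12 passed the other way (0.0712%). Without adjustment, 2 of 9 members, Acot1 and Acot3, had a p-value under 0.05, as did 15.5% of all genes. DESeq2 called 2 of 9 members, Acot1 higher in Apoe-/-, where it called 2.52% of genes, and Acot3 in the other direction, where it called 2.75%. The 2 genotypes did not overlap for 1 of 9 members, Acot1. Of all genes, 2.24% lay without overlap on the side of Apoe-/- and 2.03% on the side of the double-deficient livers.

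**Figure D1:**
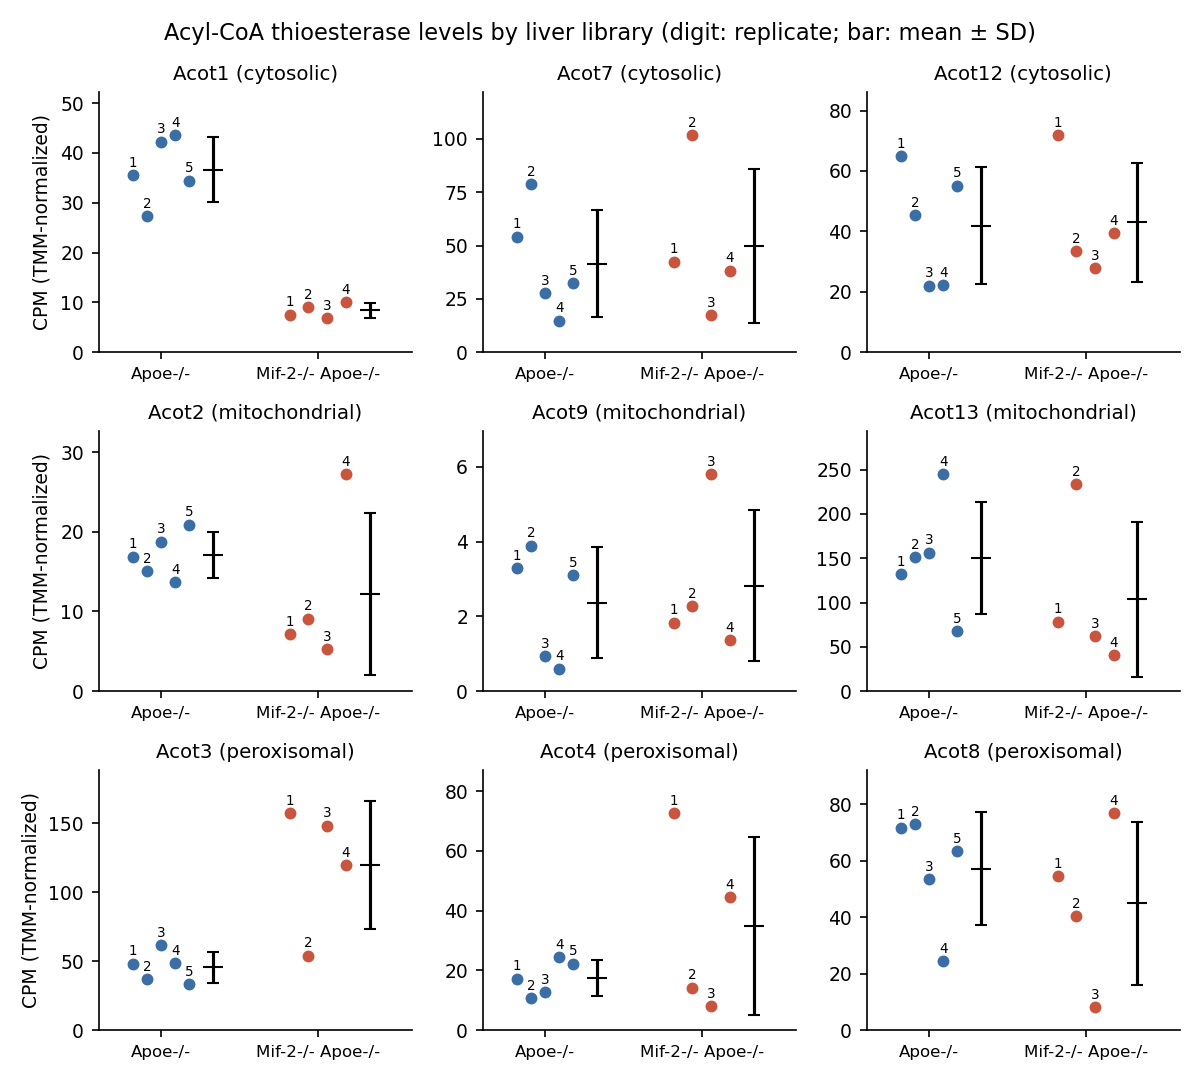
TMM-normalized CPM of each member (vertical axis, from 0) in the 5 Apoe-/- and 4 Mif-2-/- Apoe-/- libraries, with the replicate number at each point and the mean ± SD as a bar. Acot1 is the member whose genotypes do not touch, at 27.3 to 43.5 CPM against 6.80 to 10.1 CPM, and Acot3 overlaps through Mif-2-/- Apoe-/- replicate 2 at 54.0 CPM.

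Acot1, the cytosolic type I enzyme that prefers long-chain acyl-CoAs, was at 35.5, 27.3, 42.3, 43.5 and 34.5 CPM in the Apoe-/- libraries 1 to 5. It was at 7.52, 9.09, 6.80 and 10.1 CPM in the Mif-2-/- Apoe-/- libraries 1 to 4. Every Apoe-/- library was above every Mif-2-/- Apoe-/- library, and the spread within each genotype was small. On average Acot1 reached 36.6 ± 6.55 CPM (SD, n = 5) with Mif-2 and 8.37 ± 1.48 CPM (SD, n = 4) without it, a 4.38-fold difference. The log2 fold change was 2.13 (standard error 0.471), with an edgeR adjusted p of 0.105 and a DESeq2 adjusted p of 4.07e-07. The two-sided exact permutation test over the libraries gave p = 0.0159, the smallest that 5 against 4 libraries allow. Left out in turn, no library brought the edgeR adjusted p under the threshold, with values from 0.0513 to 0.222. The coefficient of variation of Acot1 was 17.9% with and 17.6% without Mif-2, and no other member was as steady in both.

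The other 2 cytosolic members overlapped between the genotypes. Acot7, a long-chain thioesterase best known from brain, was at 54.2, 78.7, 27.7, 14.7 and 32.3 CPM in the Apoe-/- libraries. It was at 42.5, 102, 17.4 and 38.2 CPM in the Mif-2-/- Apoe-/- libraries. Both genotypes covered nearly the same wide range, and the highest value came from the shallowest library. The log2 fold change of Acot7 was -0.25 (standard error 0.552, edgeR adjusted p = 0.868), and it was 0.44 without Mif-2-/- Apoe-/- replicate 2. Acot12, the cytosolic acetyl-CoA hydrolase of liver, was at 64.9, 45.3, 22.1, 22.2 and 55.2 CPM in Apoe-/- and 71.8, 33.5, 27.7 and 39.3 CPM in Mif-2-/- Apoe-/- libraries. The ranges lay over each other, with means of 41.9 ± 19.4 (SD, n = 5) and 43.1 ± 19.7 (SD, n = 4). Its log2 fold change was -0.04 (standard error 0.454, edgeR adjusted p = 0.98) and had either sign under other scalings.

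Among the mitochondrial members, Acot2, the matrix enzyme that is nearly the twin of Acot1, was at 16.9, 15.0, 18.8, 13.7 and 20.9 CPM in the Apoe-/- libraries. It was at 7.12, 9.09, 5.29 and 27.2 CPM in the Mif-2-/- Apoe-/- libraries. The first 3 of these lay below all Apoe-/- libraries and replicate 4 lay above them all. On the log2 scale the difference was 0.48 (standard error 0.628, edgeR adjusted p = 0.767), and without that library 1.25 (adjusted p = 0.456). The exact permutation test gave p = 0.127. Summed into 1 row, Acot1 and Acot2 differed by 1.38 on the log2 scale, with an edgeR adjusted p of 0.172.

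Acot13, a small thioesterase found at mitochondria, had the highest mean level per length and was at 132, 151, 156, 245 and 68.0 CPM in the Apoe-/- libraries. It was at 78.5, 233, 61.7 and 40.5 CPM in the Mif-2-/- Apoe-/- libraries. Apoe-/- replicate 5 lay with the low and Mif-2-/- Apoe-/- replicate 2 with the high libraries. These were the same libraries that stood apart from their genotype in the share of the 10 most abundant genes, at 14.7% and 26.3%, and in the sum of the hepatocyte markers, at 68330 and 203600 CPM. These measures may rest in part on the same genes, since 8 of the 11 markers were tested and the 10 highest genes were not. The part of either measure in the level of Acot13 was not tested beyond a fit with the share as a covariate. With it, the log2 fold change of Acot13 went from 0.55 (standard error 0.491, edgeR adjusted p = 0.632) to 0.19 (adjusted p = 0.91). Without Mif-2-/- Apoe-/- replicate 2 it was 1.42 (adjusted p = 0.108).

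**Figure D2:**
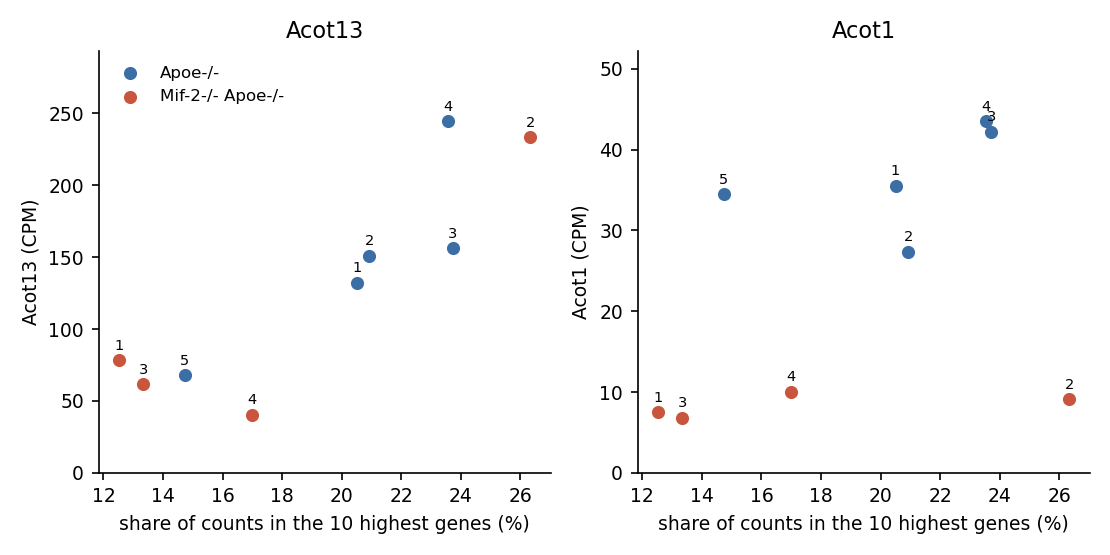
CPM of Acot13 (left) and Acot1 (right) against the share of counts in the 10 most abundant genes of each library, with the replicate number at each point. Acot13 is high, at 132 to 245 CPM, in the libraries with a share of 20.5% or more in either genotype, while Acot1 is at 34.5 CPM in Apoe-/- replicate 5 and 9.09 CPM in Mif-2-/- Apoe-/- replicate 2, each with its own genotype.

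Acot9, a mitochondrial thioesterase of broad range, had 2 to 29 counts per library, at 3.29, 3.89, 0.94, 0.60 and 3.10 CPM in Apoe-/- and 1.83, 2.27, 5.79 and 1.37 CPM in Mif-2-/- Apoe-/- libraries. The highest value was in Mif-2-/- Apoe-/- replicate 3 and the lowest in Apoe-/- replicate 4, so no order of the genotypes was seen. Its log2 fold change was -0.24 (standard error 1.01, edgeR adjusted p = 0.94) at these low counts.

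Acot3, a peroxisomal type I enzyme for medium- to long-chain acyl-CoAs, was at 48.2, 36.7, 61.5, 48.4 and 33.3 CPM in the Apoe-/- libraries. It was at 157, 54.0, 148 and 119.6 CPM in the Mif-2-/- Apoe-/- libraries. Of the latter, 3 lay far above all Apoe-/- libraries and replicate 2 lay among them. The average level was 45.6 ± 11.2 CPM (SD, n = 5) with Mif-2 and 119.7 ± 46.7 CPM (SD, n = 4) without it, a 2.62-fold higher level in Mif-2-/- Apoe-/- livers. The log2 fold change was -1.40 (standard error 0.363), with an edgeR adjusted p of 0.138, a DESeq2 adjusted p of 0.00828 and an exact permutation p of 0.0317. Without Mif-2-/- Apoe-/- replicate 2 it was -1.55 and the edgeR adjusted p was 0.0399, and without Apoe-/- replicate 5 it was -1.31 with an adjusted p of 0.0804. Over the 9 fits with a library left out, the edgeR adjusted p of Acot3 ran from 0.0399 to 0.296. Only 1 of them was under the threshold.

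Acot4, which lies next to Acot3 and hydrolyses succinyl-CoA and dicarboxylic acyl-CoAs, was at 17.3, 10.7, 12.7, 24.4 and 22.3 CPM in the Apoe-/- libraries. It was at 72.6, 14.2, 8.06 and 44.6 CPM in the Mif-2-/- Apoe-/- libraries. Replicates 1 and 4 of the latter were above all other libraries, and replicate 3, where Acot3 was high, had the lowest level of all. The log2 fold change was -0.999 (standard error 0.615, edgeR adjusted p = 0.46), and -0.36 without Mif-2-/- Apoe-/- replicate 1. Acot8, the third peroxisomal member, was at 71.8, 73.1, 53.5, 24.4 and 63.5 CPM in Apoe-/- and 54.5, 40.3, 8.06 and 76.8 CPM in Mif-2-/- Apoe-/- libraries. Its genotypes overlapped and replicate 3 was low. Acot8 had a log2 difference of 0.35 (standard error 0.533, edgeR adjusted p = 0.804), and -0.001 without that library.

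In that fit the members of each compartment lay on both sides of 0, but this turned with single libraries. Without Apoe-/- replicate 4 all 3 cytosolic members were above 0. All 3 mitochondrial members were above 0 without Apoe-/- replicate 3 or 4, without Mif-2-/- Apoe-/- replicate 3, and with the share of the 10 most abundant genes as a covariate. All 3 peroxisomal members were below 0 without Mif-2-/- Apoe-/- replicate 3. For the cytosol, 1 of 3 members was higher in Apoe-/- livers and the median log2 fold change was -0.04. For mitochondria it was 2 of 3 with a median of 0.48, and for peroxisomes 1 of 3 with a median of -0.999. Without Mif-2-/- Apoe-/- replicate 1 the peroxisomal median was -0.36 and the mitochondrial one 0.29, and without replicate 4 of that genotype the mitochondrial one was 0.28. With a library left out the cytosolic median ran from -0.20 to 0.44. The median of all genes tested was -0.17, and 43.5% of them were higher in Apoe-/- livers. That median was 0.00 with TMMwsp, a scaling for sparse counts, under which Acot1 was at 2.31 and Acot3 at -1.19.

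**Figure D3:**
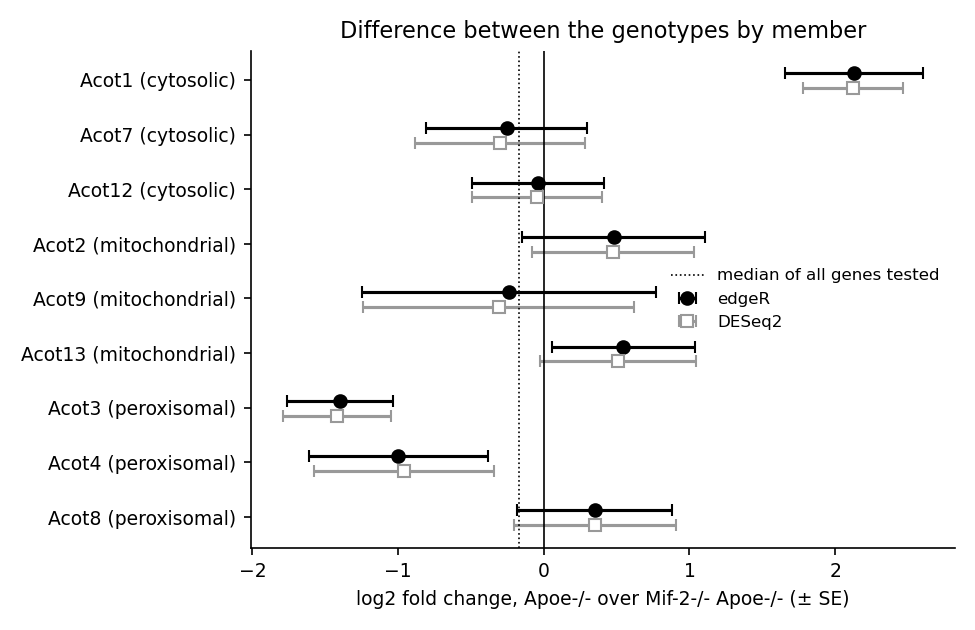
Log2 fold change of each member, Apoe-/- over Mif-2-/- Apoe-/-, with its standard error from edgeR (filled circles) and DESeq2 (open squares), sorted by compartment. The dotted line is the median of all genes tested at -0.17, and Acot1 at 2.13 and Acot3 at -1.40 lie farthest from it on either side.

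Levels between genes were compared per transcript length, as RPKM, which divides the CPM by the length in kilobases. In Apoe-/- livers the order was Acot13 (209 ± 87.9 RPKM, SD, n = 5), Acot8 (49.7 ± 17.3), Acot7 (27.6 ± 16.7), Acot1 (16.1 ± 2.88), Acot12 (13.7 ± 6.33), Acot3 (13.3 ± 3.25), Acot2 (7.77 ± 1.31), Acot4 (2.82 ± 0.952) and Acot9 (1.35 ± 0.849). Acot13 did not overlap with Acot8, nor Acot3 with Acot2, nor Acot2 with Acot4, while the other neighbours in this order overlapped over the libraries. In Mif-2-/- Apoe-/- livers it was Acot13 (144 ± 122 RPKM, SD, n = 4), Acot8 (39.0 ± 25.0), Acot3 (34.9 ± 13.6), Acot7 (33.2 ± 24.0), Acot12 (14.1 ± 6.45), Acot4 (5.62 ± 4.80), Acot2 (5.54 ± 4.62), Acot1 (3.68 ± 0.650) and Acot9 (1.61 ± 1.15). All neighbours in this order overlapped. The lengths are those of 1 transcript a gene, so an unequal use of isoforms would shift these levels. In Apoe-/- livers Acot1 held on average 4.89% and Acot3 3.97% of the 9 members' summed RPKM. With the union of exons as length these were 3.29% and 4.59%, so their order depended on the length used.

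Mitochondrial members held 62.0% ± 13.5 (SD, n = 5) of the summed RPKM with Mif-2 and 49.6% ± 17.1 (SD, n = 4) without it, most of it Acot13. Peroxisomal members held 20.4% ± 7.43 and 32.5% ± 15.9, and cytosolic members 17.6% ± 6.45 and 17.9% ± 2.64. All 3 shares overlapped between the genotypes. The order depends on the division by length, since without it the mean shares were 40.8% and 27.4% for mitochondrial, 29.7% and 49.2% for peroxisomal and 29.5% and 23.4% for cytosolic members, with and without Mif-2. Within the cytosolic share, Acot1 made up 4.53, 3.22, 5.53, 4.55 and 6.63% of the members' RPKM in the Apoe-/- libraries, compared with 1.21, 0.861, 1.80 and 2.01% in those without Mif-2. This share did not overlap, whereas that of Acot3 did, at 2.87 to 5.33% and 3.38 to 25.9%.

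**Figure D4:**
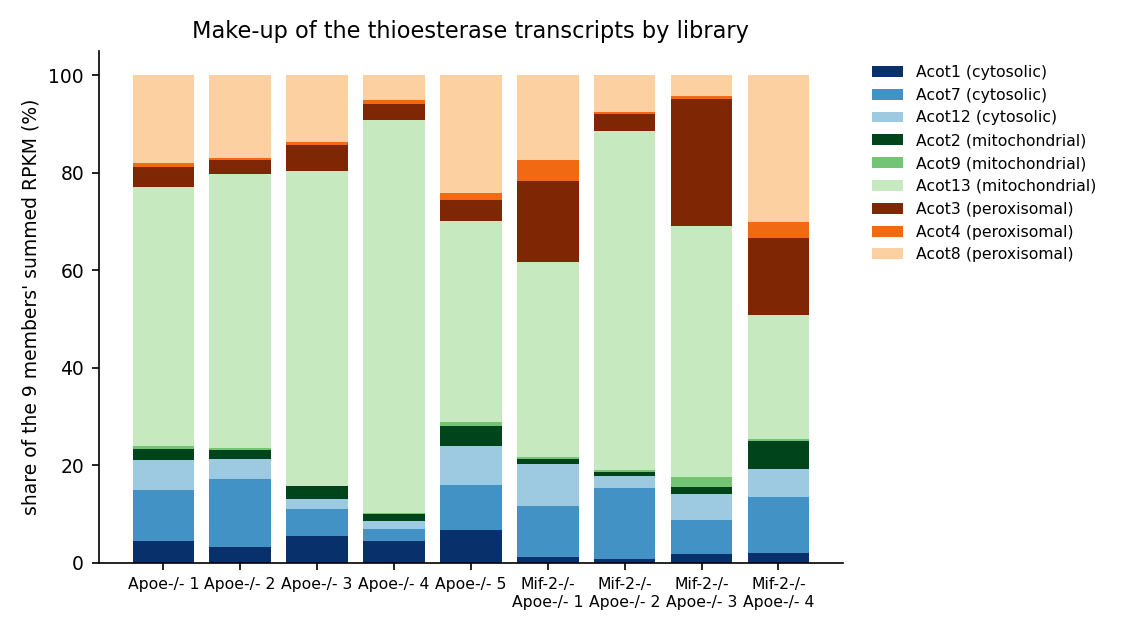
Share of each member in the summed RPKM of the 9 members (vertical axis, in percent) for each library, with blue for cytosolic, green for mitochondrial and orange to brown for peroxisomal enzymes. Acot13 takes 25.4 to 80.5% of a library, and the Acot3 block is 15.8% or more in Mif-2-/- Apoe-/- replicates 1, 3 and 4 but 3.38% in replicate 2.

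Ratios within a library do not depend on how libraries are scaled. Acot3 had 1.36, 1.34, 1.46, 1.11 and 0.966 counts for each Acot1 count in the Apoe-/- libraries, compared with 20.9, 5.94, 21.8 and 11.9 in those without Mif-2. The genotypes did not overlap, with means of 1.25 ± 0.201 (SD, n = 5) and 15.1 ± 7.58 (SD, n = 4). A gap is built into the ratio of members that differ in opposite directions. In Mif-2-/- Apoe-/- replicate 2, Acot3 lay within the range of the Apoe-/- libraries, at 54.0 CPM, and Acot1 had 16 counts. Acot1 had 2.11, 1.82, 2.25, 3.18 and 1.65 counts for each Acot2 count in Apoe-/- and 1.06, 1.0, 1.29 and 0.37 in Mif-2-/- Apoe-/- libraries, again without overlap. The ratio of Acot4 to Acot3 counts overlapped, at 0.206 to 0.669 and 0.0544 to 0.462. Since these ratios combine members whose values were already described, they are given with no test.

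**Figure D5:**
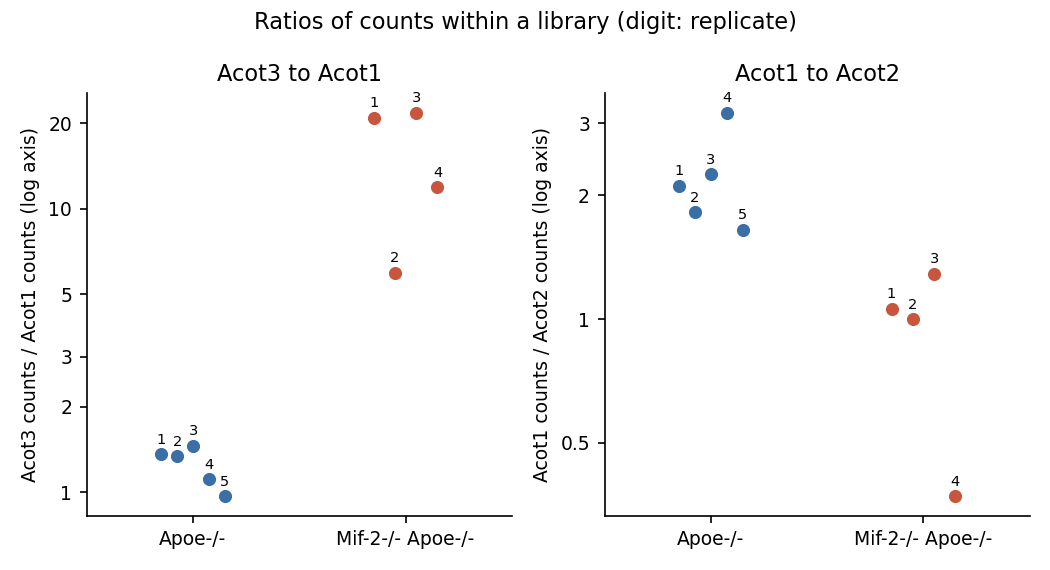
Counts of Acot3 over counts of Acot1 (left) and of Acot1 over Acot2 (right) in each library, on log axes, with the replicate number at each point. The left ratio is 0.966 to 1.46 in Apoe-/- and 5.94 to 21.8 in Mif-2-/- Apoe-/- libraries, and the right ratio is 1.65 to 3.18 and 0.37 to 1.29.

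DESeq2, but not edgeR, called Acot1 and Acot3 of the cluster on chromosome 12 in opposite directions. The promoters of Acot1, Acot3 and Acot4 were therefore set side by side. They run from 250 bases before to 50 bases after a start that RefSeq gives on GRCm38.p6. All are written 5′ to 3′ on the strand of the gene. For Acot3 the first of its starts is shown. The Acot4 window begins at 84038129, downstream of 84037254, where the RefSeq span of that gene begins. Capitals mark motif matches.
Acot1 promoter, chr12:84009252-84009551, plus strand: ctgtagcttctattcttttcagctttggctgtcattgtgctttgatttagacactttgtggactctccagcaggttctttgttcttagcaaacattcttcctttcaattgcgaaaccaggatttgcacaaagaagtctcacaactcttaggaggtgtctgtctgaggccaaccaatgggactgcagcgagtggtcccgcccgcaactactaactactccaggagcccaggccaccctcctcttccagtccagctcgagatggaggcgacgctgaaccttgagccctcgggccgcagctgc
Acot3 promoter, chr12:84051894-84052193, plus strand: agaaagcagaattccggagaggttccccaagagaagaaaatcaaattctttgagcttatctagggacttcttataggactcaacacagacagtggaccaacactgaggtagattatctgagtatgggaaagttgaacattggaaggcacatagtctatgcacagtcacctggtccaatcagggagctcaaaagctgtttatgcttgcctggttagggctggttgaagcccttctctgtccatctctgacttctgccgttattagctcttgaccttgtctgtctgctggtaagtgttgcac
Acot4 promoter, chr12:84038129-84038428, plus strand: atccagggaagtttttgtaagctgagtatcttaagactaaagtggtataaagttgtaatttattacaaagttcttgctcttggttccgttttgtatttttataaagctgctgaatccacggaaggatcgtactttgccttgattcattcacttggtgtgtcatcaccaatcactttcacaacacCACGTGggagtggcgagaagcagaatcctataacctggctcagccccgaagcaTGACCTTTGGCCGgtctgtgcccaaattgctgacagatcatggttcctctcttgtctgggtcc
The promoters of Acot1 and Acot3 had 50.4% identical bases over 272 aligned bases, with no identical run above 10 bases, in contrast to their coding regions. A promoter was given for 8 of 9 members, all but Acot13. The DR1 element to which PPARalpha binds, a direct repeat of AGGTCA with 1 base between (AGGTCANAGGTCA, either strand, up to 2 mismatches), was matched in Acot4, on the minus strand at -13, and in Acot12 at -110. It was matched in 3.86% of all 32851 promoters of this length, and in 4.4% of genes. An E-box (CACGTG) lay at -66 in Acot4, and in 7.15% of promoters and 8.09% of genes. Acot1 and Acot3 held neither motif in the window shown.

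The remaining Acot genes were low or variable. Acot5 had no count in any library, Acot6 had at most 12 and Acot10 at most 6 counts, and these 3 were not tested. Acot11, a thioesterase with a lipid-binding START domain, was at 16.6, 6.57, 23.0, 1.01 and 4.45 CPM in Apoe-/- and 32.7, 17.0, 25.4 and 37.5 CPM in Mif-2-/- Apoe-/- libraries. The genotypes overlapped at their edges, and the log2 fold change was -1.46 (standard error 0.736, edgeR adjusted p = 0.359). Its exact permutation p was 0.0317, the same as for Acot3, and its DESeq2 adjusted p was 0.232. Beside the cluster, Riox1 on the side of Acot2 was at 8.51 and 9.48 CPM (log2 fold change -0.16, standard error 0.722, edgeR adjusted p = 0.945). Dnal1 on the side of Acot6 had at most 9 counts.

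The enzymes that make, carry and use acyl-CoA were counted next. Of the other thioesterases, 0 of 8 tested were called by edgeR or DESeq2, 0 had an unadjusted edgeR p-value under 0.05, 5 were higher in Apoe-/- livers and the median log2 fold change was 0.22. The log2 fold change of Lypla1, an acyl-protein thioesterase, was 2.15 (standard error 1.16, edgeR adjusted p = 0.39), and that of Ppt1, the lysosomal palmitoyl-protein thioesterase, 0.71 (standard error 0.666, adjusted p = 0.649). Of the acyl-CoA synthetases, which run the opposite reaction, edgeR called 0 of 20 and DESeq2 called 2 in each direction, against 2.52% and 2.75% of all genes. An unadjusted edgeR p-value under 0.05 was found for 3 higher and 2 lower genes of the 20, against 15.5% of all genes. The median was 0.18, with 11 higher in Apoe-/- livers. Acsf3, the mitochondrial malonyl-CoA synthetase, had an edgeR log2 fold change of 1.33 with a standard error of 0.322 and a DESeq2 adjusted p of 0.00178. Acss2, which makes acetyl-CoA from acetate, had an edgeR value of -1.53 with a standard error of 0.375 and a DESeq2 adjusted p of 0.000242. Neither gene overlapped between the genotypes. Slc27a5, the bile acyl-CoA synthetase, was at 850.0 ± 267 CPM (SD, n = 5) with Mif-2 and 385 ± 151 CPM (SD, n = 4) without it (DESeq2 adjusted p = 0.0396).

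Of 14 genes of CoA synthesis and hydrolysis, neither tool called any, 7 were higher in Apoe-/- livers and the median log2 fold change was -0.01. The lowest p-values were those of Coasy, the last enzyme of CoA synthesis (log2 fold change 1.06, standard error 0.411, edgeR adjusted p = 0.245), Vnn1, the pantetheinase (1.26, standard error 0.504, adjusted p = 0.261), and Ppcdc (-0.90, standard error 0.525, adjusted p = 0.429). By edgeR's unadjusted p-value, 2 of the 14 were under 0.05, against 15.5% of all genes. Of 12 genes of acyl-CoA binding and transfer, 9 were higher in Apoe-/- livers, with a median of 0.54. EdgeR called 0, with 3 of 12 at an unadjusted p-value under 0.05 (15.5% of all genes), and DESeq2 called 1 (2.52% of all genes), Scp2, the sterol carrier and thiolase, at 844 ± 231 and 255 ± 201 CPM (adjusted p = 0.0197). Cpt2 and Dbi, the acyl-CoA binding protein, had log2 fold changes of 0.83 and 1.34 with an edgeR adjusted p of 0.298 each.

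PPARalpha targets of fatty acid oxidation come next. Of 25 tested, 16 were higher in Apoe-/- livers, with a median log2 fold change of 0.48 against -0.17 for all genes. Hepatocyte markers had a median of 0.53, with 7 of 8 tested higher in Apoe-/- livers, and endothelial markers one of 0.53. It was 0.27 for Kupffer cell, 0.085 for cholangiocyte, -0.24 for stellate cell and -0.69 for leukocyte markers. The part of these in the level of the PPARalpha targets was not tested. With an unadjusted edgeR p-value under 0.05 there were 8 of 25, where all genes gave 15.5%. EdgeR called 1 of 25, higher in Apoe-/-, where it called 0.0593% of all genes. This was Cyp4a14, a fatty acid omega-hydroxylase, at 498 ± 163 and 122 ± 44.8 CPM (log2 fold change 2.03, standard error 0.362, edgeR adjusted p = 0.045). DESeq2 called 6 of 25, all higher in Apoe-/-, where it called 2.52% of all genes, among them Plin2, the lipid droplet coat protein (edgeR log2 fold change 1.58, DESeq2 adjusted p = 0.00037), and Ehhadh, the peroxisomal bifunctional enzyme (edgeR log2 fold change 1.81, DESeq2 adjusted p = 0.000857). Of 24 peroxisomal matrix enzymes and importers, 17 were higher in Apoe-/- livers, with a median of 0.28, and edgeR called 0. An unadjusted p-value under 0.05 was found for 6 of 24, against 15.5% of all genes, and DESeq2 called 4, all higher in Apoe-/-, against 2.52%. Acox2, the branched-chain acyl-CoA oxidase, was at 121 ± 13.8 and 54.0 ± 23.2 CPM without overlap (DESeq2 adjusted p = 0.0055). Scp2 and Ehhadh are on this list too.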

How the data were processed

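Per the labels and methods, quality was checked with FastQC, adapters were removed with cutadapt, and HISAT2 placed the reads on mm10. The deposited values are unnormalized counts of reads on the exons of each Entrez gene, made by the authors. The table held 27179 genes and 1 line without an identifier, which was left out. RefSeq names of GRCm38.p6 gave a symbol to 25275 identifiers.

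A gene was tested if 3 or more libraries of a genotype had 1 count or more, except the 10 highest genes, which left 16860. The test was edgeR 4.0.16 under R 4.3.3, by quasi-likelihood after TMM with Benjamini-Hochberg adjustment. Standard errors were derived from the F statistic. DESeq2 1.42.0 was run on all genes with a count and gave an adjusted p to 14030. Single members were compared on log2(CPM + 0.5) by the two-sided exact permutation test over 126 arrangements. RPKM used the longest transcript that GENCODE M21 matches to RefSeq. Sequences were compared with Biopython 1.88, and figures were made with Python 3.11.15 and matplotlib 3.10.9. The direction of the fold change was checked on simulated counts, which varied less between libraries than these data.

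The total counts of 2318148 to 10764182 per library limit what can be seen of low members, and the biological coefficient of variation was 0.909. The study gives 4 mice per group, while the labels give 5 Apoe-/- libraries. All were used, and libraries may share an animal. The members and lists were chosen with earlier results of these data known. Named genes are the members, the other Acot genes, Ddt, the 3 genes with the lowest edgeR p in each pathway list, and the 5 genes most correlated with the member of lowest p. Alternatives were other size factors and filters, the 10 highest genes kept, DESeq2, a replicate block, summed paralogs, another pseudocount, counts not divided by length, and each library left out. The share of the 10 highest genes as a covariate and exon-union lengths were added after seeing the data. The lysates and lipids of the study were not analysed here.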

Additional observations from a re-analysis of the deposited data

How the results depend on the processing

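Under edgeR with other size factors (RLE, TMMwsp), no filter, edgeR's own filter or the 10 highest genes kept, 0 of 9 members were called. DESeq2 called 739 genes in place of 22, and 2 of the members. Leaving out each library gave 9 to 262 called genes, the most without Mif-2-/- Apoe-/- replicate 2 and the fewest without Apoe-/- replicate 3, with the next most without Apoe-/- replicate 5. It gave 0 to 1 called members, Acot3 without Mif-2-/- Apoe-/- replicate 2. With the share of the 10 highest genes as a covariate, chosen after seeing the data, 35 genes were called, and Acot1 was at 2.03 and Acot3 at -1.11.

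No pairing by replicate number was seen. The deviations of same-numbered libraries correlated at -0.012 to 0.124, and 1 of 4 pairs correlated best with its own number. The labels do not say whether same-numbered libraries belong together, and these correlations cannot exclude it. A replicate block over 8 libraries, without Apoe-/- replicate 5, gave 505 called genes and 0 called members. The cause was not tested.

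Acot12 changed sign with TMMwsp (0.136), edgeR's filter (0.005), the 10 highest genes kept (0.047) and the covariate (0.177), and Acot9 with the covariate (0.011). With a library left out, Acot12 was at -0.20 to 0.32, Acot9 at -0.47 to 0.40, Acot7 at -0.55 to 0.44 and Acot8 at -0.001 to 0.74. Acot1 stayed at 2.03 to 2.31 in every fit with a row of its own, while 1 summed row of Acot1 to Acot6 was at -0.582 (edgeR adjusted p = 0.406), which holds Acot3 and Acot4 by construction. With a library left out, the median was -0.20 to 0.44 for cytosolic, 0.28 to 0.59 for mitochondrial and -1.28 to -0.36 for peroxisomal members. Without division by length the peroxisomal members held the largest mean share without Mif-2, at 49.2%.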

Other observations

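Over the 9 libraries, the 5 genes whose log2 CPM followed Acot1 most closely among 8097 genes at 10 CPM or more on average were Mad2l2, Atf5, Ddt, Tubb2a and Msra, with Pearson's r of 0.986, 0.969, 0.963, 0.959 and 0.953. The points share the difference between the genotypes. After the genotype means were subtracted, r was 0.812 for Mad2l2, a subunit of DNA polymerase zeta, 0.531 for Atf5, a stress-related transcription factor, 0.44 for Msra, a methionine sulfoxide reductase, 0.376 for Tubb2a and 0.0156 for Ddt. Mad2l2 averaged 86.7 ± 23.2 CPM (SD, n = 5) with Mif-2 and 16.7 ± 5.43 CPM (SD, n = 4) without it (log2 fold change 2.37, standard error 0.39, edgeR adjusted p = 0.0275). Msra was at 264 ± 75.0 and 63.9 ± 18.1 CPM (log2 fold change 2.05, standard error 0.334, edgeR adjusted p = 0.0269). Atf5 was at 687 ± 80.7 and 267 ± 47.8 CPM (log2 fold change 1.36, standard error 0.276, edgeR adjusted p = 0.0851). These values are a description of the libraries.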
